A study of Mus musculus with 6 samples.

Results

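Glucose that enters a cell is phosphorylated and then either broken down to pyruvate by glycolysis or oxidised in the pentose phosphate branch. The 36 genes described here were taken from a list of gene names that covers both routes: 3 glucose transporters, 19 glycolytic enzymes and regulators of phosphofructokinase, 6 genes of lactate and pyruvate handling, and 8 genes of the pentose phosphate branch. This list and the further lists below were chosen with earlier results of these data known. Their counts of called genes, set beside the share of all genes, are thus descriptions and not tests. The 36 genes are among the 54532 gene identifiers in the count table, and each of the 36 had enough reads to be tested. RNA-seq libraries were made from cultured mouse peritoneal macrophages with the genotype labels Rfx1 overexpression (3 libraries, labelled OE below) and negative control (3 libraries, labelled NC below). The Rfx1 protein is a DNA-binding regulator of transcription of the regulatory factor X (RFX) type, and the series asks about its effect on gene expression in these cells. All 6 cultures were kept in DMEM with serum. The labels do not give the vector, the age, sex or number of mice, or whether replicates came from separate cultures. The spread behind each p-value is therefore that among the deposited libraries, and it may be technical.

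Hexokinases trap glucose in the cell, phosphofructokinase commits it to glycolysis, and lactate dehydrogenase and the lactate exporters dispose of the pyruvate and regenerate NAD+. The pentose phosphate branch leaves the pathway at the first phosphorylated sugar and yields NADPH, used by phagocytes for the oxidative burst and against oxidants, and ribose for nucleotides. In macrophages, glycolysis is known to be raised by inflammatory signals and by low oxygen. The response to low oxygen runs through hypoxia-inducible factor, which binds DNA at the core letters ACGTG or GCGTG.

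A check of the labels is given ahead of the results. Rfx1 itself had 40.7, 36.4 and 23.2 CPM (counts scaled to library size, with TMM factors) in OE 1 to 3, against 57.5, 10.95 and 14.8 CPM in NC 1 to 3. The library labelled NC 1 was the highest of all 6, the groups overlapped, and the log2 difference was 0.27 ± 0.58 (SE, edgeR adjusted p 0.80; exact 2-sided permutation p 0.5, where 0.1 is the smallest that 3 against 3 allows); it was 1.37 (edgeR adjusted p 0.024) without NC 1, -0.10 without NC 2 and -0.04 without NC 3. Lyz2, the lysozyme gene that marks macrophages, had 653, 721 and 496125 counts in OE 1 to 3, against 331839, 726922 and 519887 counts in NC 1 to 3, so OE 1 and OE 2 stood apart from the other 4 libraries. The labels name no mouse line, so a difference in the source of OE 1 and OE 2 cannot be told apart from the label in the results that rest on them. Counts of called genes below are therefore given also without OE 1 and OE 2; that fit rests on OE 3 alone, which is then assumed to vary like the NC libraries. The 10 mesothelial markers summed to 2.26 to 8.55 CPM in libraries labelled OE, with Upk1b and Muc16 at 0 in all of them, against 26.4 to 167 CPM in libraries labelled NC, and the 8 fibroblast markers summed to 284 to 807 CPM, against 655 to 1699 CPM. Of these lists, 5 of 7 tested mesothelial and 2 of 7 tested fibroblast markers were called lower, beside 5.97% of all tested genes. The 7 neutrophil markers summed to 47.2 to 338 CPM in libraries labelled OE, with Ly6g, Cxcr2 and Mpo at 0, against 8.44 to 18.1 CPM; nearly all of this was S100a8, without which the sums were 1.24 to 3.83 CPM, against 0.613 to 2.78 CPM. S100a8 and Camp were called higher, beside 6.9% of all tested genes, and were the only neutrophil markers with enough counts to test. The 10 macrophage markers summed to 9645 to 35669 CPM, against 20508 to 43995 CPM, most of it Lyz2, and none was at 0 throughout a group. Without Lyz2 they summed to 6424 to 10149 CPM in libraries labelled OE, against 4751 to 5341 CPM. Cd14, Adgre1 and Itgam of the 10 were called higher and none lower, beside 6.9% and 5.97% of all tested genes. The summed B cell, T and NK cell, mast cell and endothelial markers overlapped between the groups. In such bulk libraries, fewer cells of a type and less RNA per cell cannot be told apart. The mesothelial sums, the neutrophil sums and the macrophage sums without Lyz2 moved with the labels, without overlap between the groups. Fibroblast sums, macrophage sums with Lyz2 and neutrophil sums without S100a8 did overlap. The part of all these differences in the results below was not tested.

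Many glycolytic genes were higher in libraries labelled OE, and no pentose phosphate gene was called. Of the 36 genes, 12 rose and none fell by edgeR's quasi-likelihood test at an adjusted p of 0.05, where 6.9% of all 13454 tested genes were called higher and 5.97% lower (with library-size scaling alone, 4.82% and 6.76%). At an unadjusted p of 0.05, 1 of the 36 genes, Slc2a6, was lower, where 13.7% of all tested genes were. DESeq2 called none of the 36 lower. Limma-voom, which called 18.2% of all genes higher and 19.8% lower, called Slc2a6 lower. All 12 were among the 28 glycolytic, transport and lactate genes: Slc2a1, Hk2, Gpi1, Pfkl, Pfkp, Pfkfb3, Tpi1, Pgk1, Eno1, Ldha, Pdk3 and Slc16a3. Without OE 1 and OE 2, 3 of them were called, Slc2a1, Hk2 and Pfkfb3, where 1.78% of all genes were called higher. Without NC 3, 4 of the 36 rose and none fell (3.79% of all genes rose and 2.78% fell), and without OE 2, 6 rose and none fell (3.32% and 1.8% of all genes). At an adjusted p of 0.01, 5 of the 36 rose, where 3.13% of all genes did. With no filter on low counts, 13 rose and 1, Gapdh, fell, where 6.14% of all genes rose and 6.15% fell. The 3 libraries labelled OE lay above all 3 labelled NC for 23 of the 36 genes, where 16.3% of all tested genes did so, and below them for 2 genes, Slc2a6 and G6pdx, where 17.1% of all tested genes did so. The median log2 difference was 0.77 over the 28 glycolytic, transport and lactate genes and 0.40 over the 8 pentose phosphate genes, beside -0.01 over all tested genes. Scaling by library size alone shifted these medians to 0.58, 0.19 and -0.20. Since the genes were chosen with earlier results of these data known, these counts and medians describe them and test nothing.

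**Figure D1:**
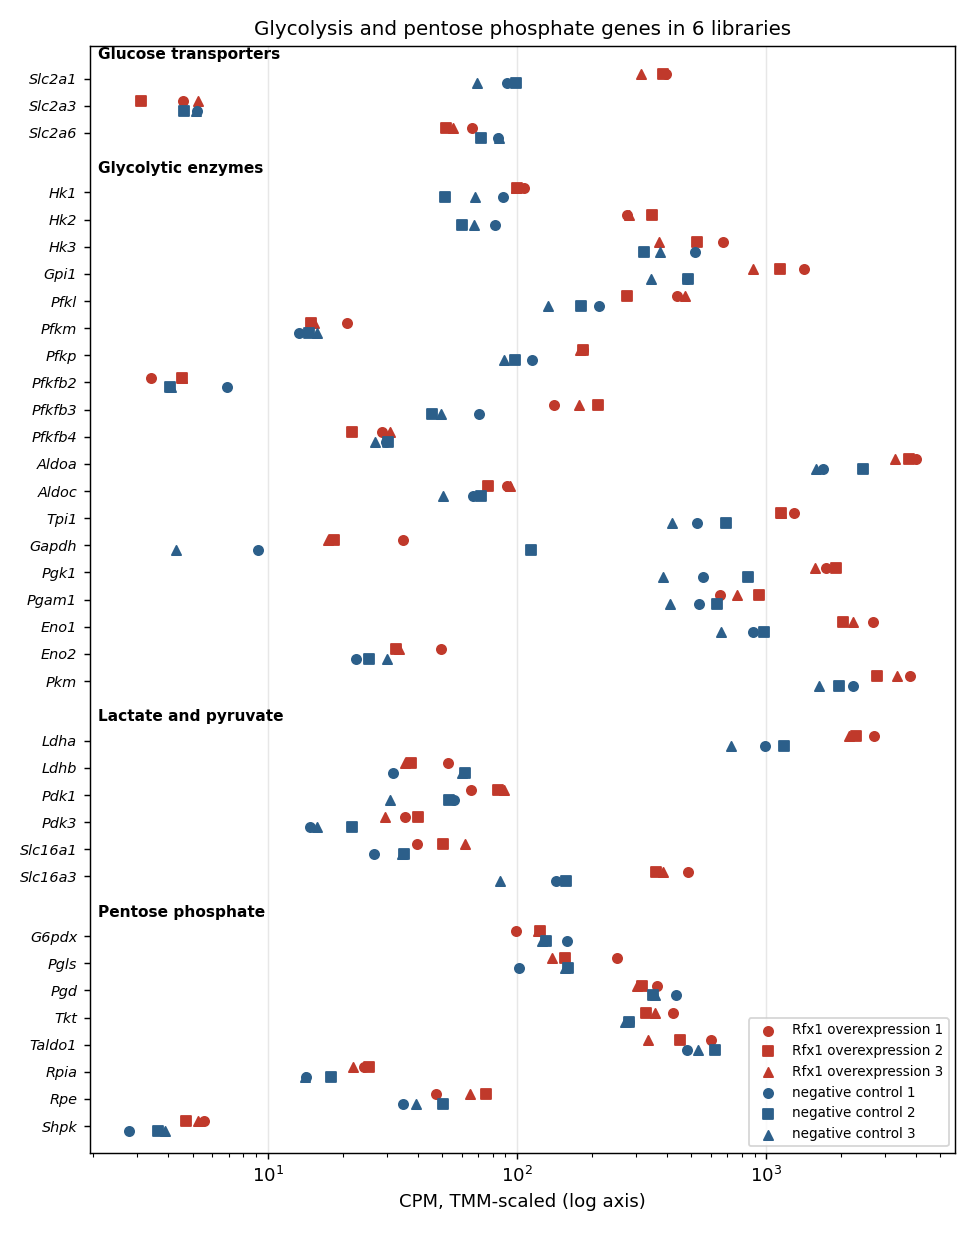
Level of each of the 36 genes in each library, in TMM-scaled CPM on a log axis, grouped by role; red marks are Rfx1 overexpression libraries, blue marks negative control libraries, and the symbol gives the replicate number. The red marks of Slc2a1, Hk2, Pfkfb3 and Slc16a3 lie well to the right of the blue ones, the red and blue marks mix for 4 of the 8 pentose phosphate genes, and Gapdh is scattered, with negative control 2 at 114 CPM.

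Promoter sequences are shown for the 4 risen genes with the largest log2 differences, which were also called in all 6 fits leaving out a library. G6pdx, the entry enzyme of the pentose phosphate branch, which was not called, is shown beside them. Each window runs from 250 bases before to 50 bases after the RefSeq start site, on GRCm38.p6, written 5′ to 3′ on the gene's strand. Pfkfb3 has another window (chr2:11502041-11502340), not shown, which holds 4 matches to ACGTG or GCGTG. Capitals mark each ACGTG or GCGTG on either strand, so that CACGT and CACGC are the same letters read from the other strand; no other bases are marked.
Slc2a1 (chr4:119108495-119108794, plus strand): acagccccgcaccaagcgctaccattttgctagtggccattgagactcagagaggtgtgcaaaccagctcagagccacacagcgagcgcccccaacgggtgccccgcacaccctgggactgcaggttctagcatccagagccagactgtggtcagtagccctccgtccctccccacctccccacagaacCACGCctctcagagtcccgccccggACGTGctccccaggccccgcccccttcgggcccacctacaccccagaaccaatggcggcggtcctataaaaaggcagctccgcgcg
Hk2 (chr6:82774405-82774704, minus strand): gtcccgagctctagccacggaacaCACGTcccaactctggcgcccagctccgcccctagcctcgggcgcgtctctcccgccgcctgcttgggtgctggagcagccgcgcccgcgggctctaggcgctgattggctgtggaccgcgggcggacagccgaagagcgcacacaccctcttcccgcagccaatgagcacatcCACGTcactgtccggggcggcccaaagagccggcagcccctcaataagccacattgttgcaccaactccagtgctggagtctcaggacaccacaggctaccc
Pfkfb3 (chr2:11553880-11554179, minus strand): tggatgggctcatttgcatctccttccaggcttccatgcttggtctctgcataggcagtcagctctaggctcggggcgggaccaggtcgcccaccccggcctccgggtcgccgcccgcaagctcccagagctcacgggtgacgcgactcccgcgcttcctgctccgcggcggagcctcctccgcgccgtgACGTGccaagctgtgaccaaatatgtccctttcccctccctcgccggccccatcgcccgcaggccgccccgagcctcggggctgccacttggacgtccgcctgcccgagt
Slc16a3 (chr11:120948817-120949116, plus strand): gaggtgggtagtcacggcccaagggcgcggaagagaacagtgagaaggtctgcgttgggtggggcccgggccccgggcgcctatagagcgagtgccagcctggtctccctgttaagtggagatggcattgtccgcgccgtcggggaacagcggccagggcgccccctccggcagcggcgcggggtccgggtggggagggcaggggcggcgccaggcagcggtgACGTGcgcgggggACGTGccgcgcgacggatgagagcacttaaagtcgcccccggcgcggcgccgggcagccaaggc
G6pdx (chrX:74428831-74429130, minus strand): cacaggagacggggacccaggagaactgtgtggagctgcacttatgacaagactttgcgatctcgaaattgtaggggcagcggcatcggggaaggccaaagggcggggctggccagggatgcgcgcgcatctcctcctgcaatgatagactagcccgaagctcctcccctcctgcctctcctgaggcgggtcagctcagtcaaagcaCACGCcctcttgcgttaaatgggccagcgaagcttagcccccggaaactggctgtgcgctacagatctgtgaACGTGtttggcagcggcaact
RefSeq windows were at hand for 35 of the 36 genes (all but Slc2a3), 51 windows in all, since some genes have several starts. ACGTG on either strand stood in 22 of the 51 windows (43.1%), beside 19.6% of all 32851 RefSeq windows of the same length. It stood in 8 of 16 windows of risen genes (50%), 14 of 35 windows of genes that were not called (40%), and 1 of 9 windows of pentose phosphate genes (11.1%), the G6pdx window above. With GCGTG counted as well, 7 of those 9 windows held a match (77.8%), as did 14 of 16 windows of risen genes (87.5%) and 27 of 35 windows of genes that were not called (77.1%), beside 43.8% of all windows. Counted per gene, since some have several windows, the order of the last 2 sets turned round. Either core stood in 10 of 12 risen genes (83.3%) and 21 of 23 genes that were not called (91.3%), beside 46.7% of all 27025 genes. The windows also differed in base composition: their median GC content was 66.0% for risen genes and 60.7% for all 35 genes, beside 52.7% for all windows, and its part in the motif shares was not tested. GTTGCC, letters of the X-box that regulatory factor X proteins bind, stood on either strand in 0 of 16 windows of risen genes and 8 of 35 of the others (22.9%), beside 12.5% of all windows. Per gene this was 0 of 12 risen genes and 7 of 23 others (30.4%), beside 14.1% of all genes. Only these exact letters were searched for, so other forms of the X-box were not counted. A match is a description of these letters and does not show that a factor binds there.

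Among the glucose transporters, Slc2a1 rose and the other two were not called. Slc2a1 (GLUT1, chr4:119108711-119137983 on mm10, the build of all coordinates here), the transporter that many activated cells depend on, had 397, 384 and 314 CPM in libraries labelled OE, against 91.6, 98.9 and 69.5 CPM in libraries labelled NC. The groups did not overlap, and the mean was 4.21 times as high (log2 difference 2.08 ± 0.23, SE; edgeR adjusted p 7.8e-04). Slc2a6 (chr2:27021363-27027998), a lysosomal family member of myeloid cells, had 66.1, 51.8 and 55.4 CPM, against 83.9, 72.1 and 84.9 CPM. All libraries labelled OE were lower, with a log2 difference of -0.48 ± 0.20 that did not pass the test (edgeR adjusted p 0.15). Slc2a3, a high-affinity transporter, was near 5 CPM in both groups, at 4.31 ± 1.09 CPM in libraries labelled OE and 5.00 ± 0.32 CPM in libraries labelled NC (SD, n = 3 each). Per kb of exon, Slc2a1 made up 84.2, 86.9 and 83.3% of the summed level of these 3 transporters in OE 1 to 3, against 49.3, 55.0 and 42.2% in NC 1 to 3. Slc2a6 held 15.3, 12.8 and 16.05%, against 49.3, 43.8 and 56.3%. In the libraries labelled NC the 2 genes were thus at like levels per kb, while in those labelled OE Slc2a1 held most of the total.

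Among the hexokinases, Hk2 rose and Hk1 and Hk3 did not pass the test. Hk2 (chr6:82725025-82774454), the inducible hexokinase bound to mitochondria, had 276, 350 and 281 CPM in libraries labelled OE, against 81.7, 60.0 and 67.1 CPM in libraries labelled NC. The lowest OE value was more than 3 times the highest NC value, and the log2 difference was 2.12 ± 0.23 (edgeR adjusted p 5.8e-04), the largest of the 36. Hk1, the hexokinase of most tissues, had 107, 99.8 and 99.7 CPM, against 88.4, 51.6 and 67.9 CPM. Its groups did not overlap, but the log2 difference of 0.56 ± 0.23 missed the threshold (edgeR adjusted p 0.15). Hk3, the myeloid hexokinase, was the most abundant per kb in all 6 libraries and overlapped between groups, at 524 ± 149 CPM in libraries labelled OE and 405 ± 101 CPM in libraries labelled NC (SD, n = 3 each; log2 difference 0.37, edgeR adjusted p 0.44). Per kb, Hk2 held 19.2, 27.4 and 29.4% of the hexokinase total in OE 1 to 3, against 8.33, 9.69 and 9.31% in NC 1 to 3, and Hk3 held 75.6, 67.1 and 63.3%, against 85.4, 84.5 and 84.1%. Gpi1 (chr7:34201330-34230336), which isomerises the product of hexokinase and stands where the pentose phosphate branch leaves, had 1425, 1133 and 890.0 CPM, against 480.2, 488 and 345 CPM. It rose by 1.39 ± 0.28 on the log2 scale (edgeR adjusted p 0.011), with the call lost without OE 2 (adjusted p 0.053), NC 3 (0.060) or both OE 1 and OE 2 (0.17).

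The phosphofructokinase step rose at the level of 2 of its 3 subunits and 1 of its 3 measured regulators; without OE 1 and OE 2, Pfkfb3 kept its call and Pfkl (edgeR adjusted p 0.062) and Pfkp (0.15) did not. Pfkfb3 (chr2:11471433-11554077), the inducible enzyme whose product activates phosphofructokinase, had 141, 211 and 178 CPM in libraries labelled OE, against 70.4, 45.6 and 49.8 CPM in libraries labelled NC. No libraries overlapped, and the log2 difference was 1.68 ± 0.25 (edgeR adjusted p 0.0031). Its relatives Pfkfb2 and Pfkfb4 overlapped between groups, with log2 differences of -0.27 ± 0.35 and -0.09 ± 0.21. Per kb, Pfkfb3 held 74.5, 84.5 and 77.0% of the summed level of the 3 enzymes in OE 1 to 3, against 56.8, 47.0 and 52.1% in NC 1 to 3. Among the subunits, Pfkl (chr10:77986947-78010083), the liver-type form and the most abundant of the 3 per kb here, had 439, 278 and 472 CPM, against 214, 181 and 134 CPM. It rose by 1.17 ± 0.28 on the log2 scale (edgeR adjusted p 0.024), with the call lost without OE 1 (adjusted p 0.059), NC 2 (0.093) or NC 3 (0.11). Pfkp (chr13:6579768-6648777), the platelet-type form, had 185, 185 and 179 CPM, against 116, 98.7 and 89.1 CPM. It rose by 0.85 ± 0.20 (edgeR adjusted p 0.020), with the call lost without OE 2 or NC 2 (adjusted p 0.085 and 0.085) or NC 3 (0.12). Pfkm, the muscle-type form, was at 17.0 ± 3.27 CPM in libraries labelled OE and 14.6 ± 1.17 CPM in libraries labelled NC (SD, n = 3 each), with overlap.

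**Figure D2:**
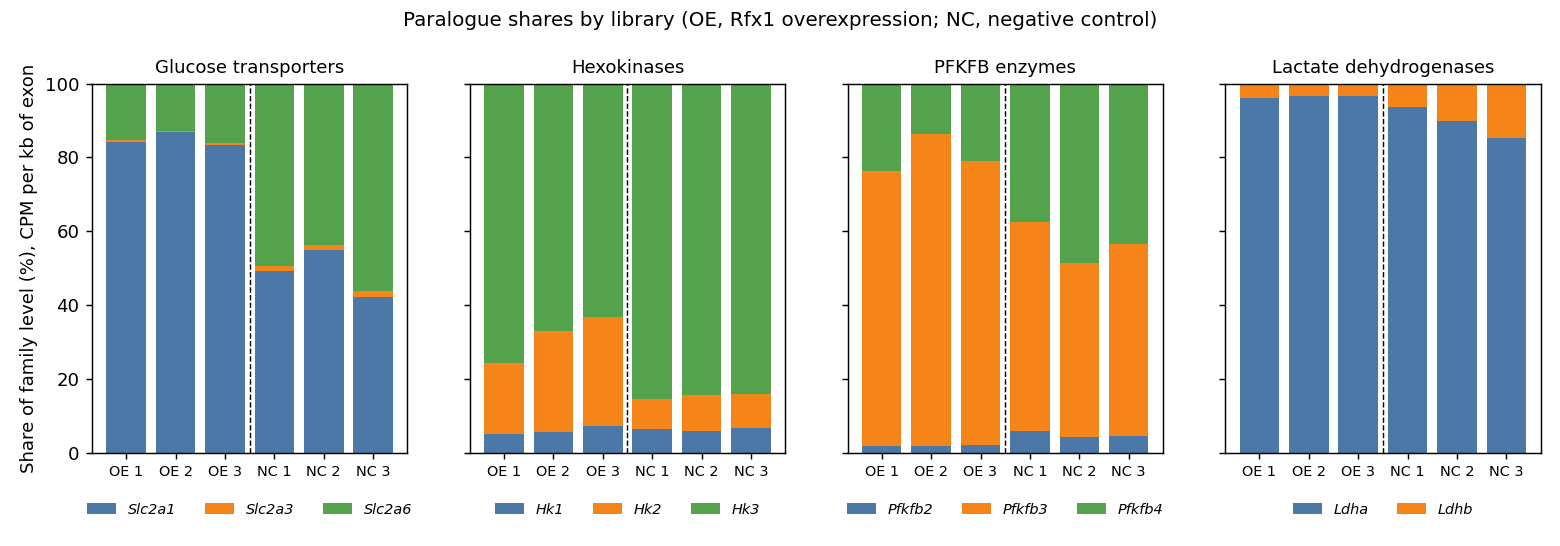
Share of each paralogue in the summed level of its family, in percent of CPM per kb of exon, in each library, with the 3 Rfx1 overexpression libraries left of the dashed line and the 3 negative control libraries right of it. Slc2a1, Hk2, Pfkfb3 and Ldha each take a larger share in every Rfx1 overexpression library than in any negative control library; a share depends on all members of a family, and no test was made of it.

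In lower glycolysis, 3 of the enzymes rose and the others were higher without passing the test, Gapdh apart; without OE 1 and OE 2 none was called, with edgeR adjusted p of 0.19 for Tpi1, 0.16 for Pgk1 and 0.093 for Eno1. Pgk1 (chrX:106187100-106203699), which makes the first ATP of the pathway, had 1737, 1908 and 1573 CPM in libraries labelled OE, against 556, 845 and 384 CPM in libraries labelled NC. Its log2 difference was 1.55 ± 0.32 (edgeR adjusted p 0.013), with the call lost without OE 2 (adjusted p 0.068) or NC 3 (0.056). Eno1 (chr4:150236721-150248879), the main enolase, had 2680.4, 2029 and 2230.45 CPM, against 889, 979.7 and 662 CPM. Its log2 difference was 1.45 ± 0.27 (edgeR adjusted p 0.0084), with the call lost without NC 3 (adjusted p 0.053). Tpi1 (chr6:124810586-124814296), which interconverts the triose phosphates, had 1293, 1147 and 1144 CPM, against 527, 691 and 421 CPM. Its log2 difference was 1.13 ± 0.26 (edgeR adjusted p 0.021), with the call lost without OE 1, OE 2, NC 1 or NC 3 (adjusted p 0.052, 0.083, 0.053 and 0.12). For all 3 genes each library labelled OE lay above each library labelled NC.

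Aldoa, the main aldolase, was the most abundant of the 36 genes per kb, at a mean of 1266 CPM per kb in libraries labelled OE and 656 CPM per kb in libraries labelled NC. Its CPM of 4002, 3761 and 3289, against 1685, 2460 and 1587, did not overlap, and the log2 difference of 0.95 ± 0.29 missed the threshold (edgeR adjusted p 0.058). Pkm, the pyruvate kinase gene of these cells, had 3787, 2797 and 3367 CPM, against 2231, 1959 and 1635 CPM, without overlap (log2 difference 0.77 ± 0.27, edgeR adjusted p 0.094). Pgam1, Aldoc and Eno2 were also higher in every library labelled OE, with log2 differences of 0.57, 0.47 and 0.57 and edgeR adjusted p of 0.19, 0.19 and 0.15. The symbol Aldoa has a second identifier in the table, with 0, 26 and 5 counts in OE 1 to 3, against 9, 5 and 8 counts in NC 1 to 3; it was too low to test and is kept apart here.

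**Figure D3:**
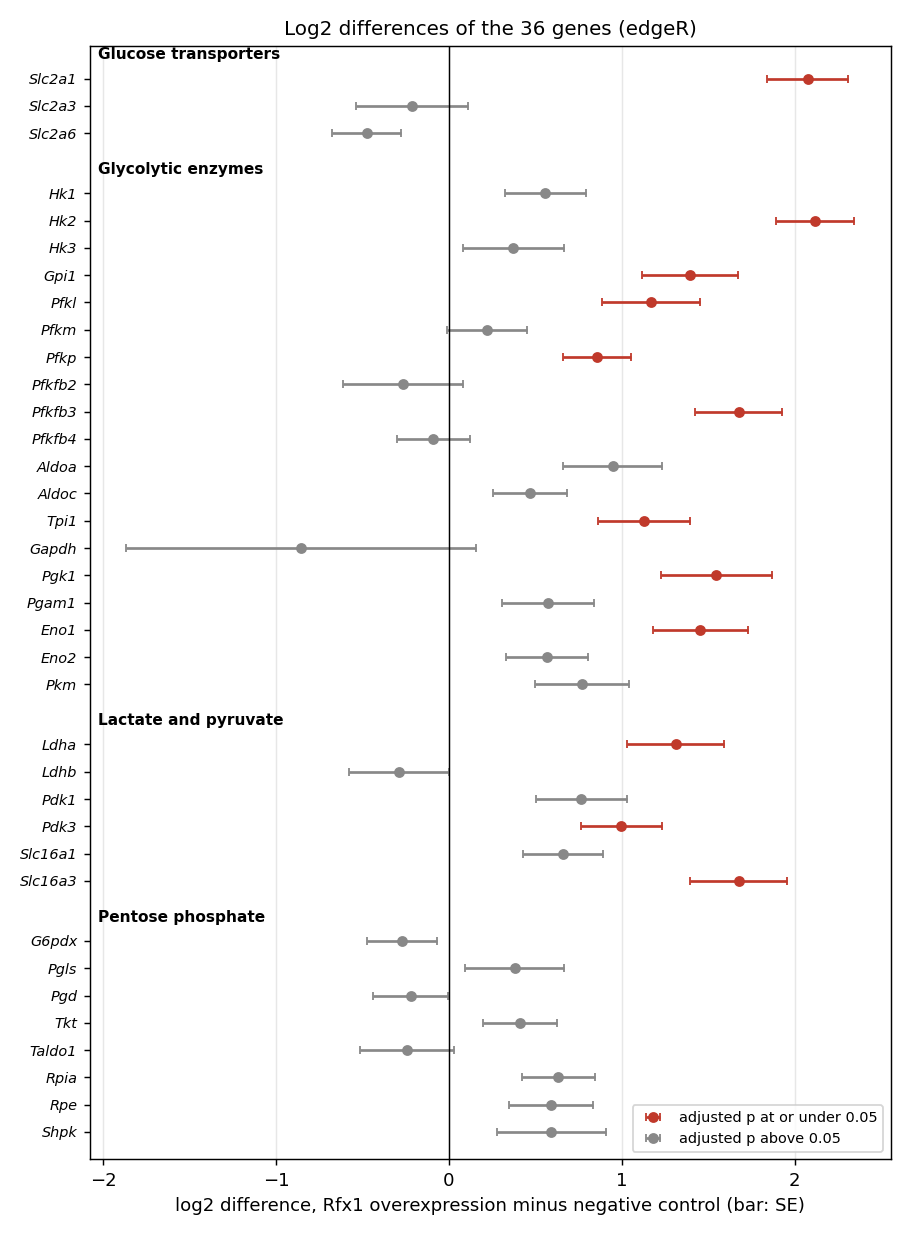
Log2 difference of each gene, Rfx1 overexpression minus negative control, with its standard error as a bar, from edgeR's quasi-likelihood fit; red points passed an adjusted p of 0.05 and grey points did not. The 12 red points run from 0.85 (Pfkp) to 2.12 (Hk2), none stands among the 8 pentose phosphate genes, and Gapdh has the widest bar.

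Gapdh (chr6:125161715-125166467), the dehydrogenase that opens the energy-yielding steps of glycolysis and a common reference gene, was low and erratic in this table. It had 511, 326 and 297 counts in OE 1 to 3, against 194, 2153 and 79 counts in NC 1 to 3. Per kb of exon this was 8.45, 4.46 and 4.24 CPM, against 2.21, 27.7 and 1.04 CPM, where Pgk1, the next enzyme, had 774, 850.45 and 701 CPM per kb, against 248, 377 and 171 CPM per kb. NC 2 stood far above the other 5 libraries. The log2 difference of -0.85 ± 1.01 did not pass the test (edgeR adjusted p 0.63), and it was 1.82 without NC 2 (edgeR adjusted p 0.060), so no direction is given for Gapdh.

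Gapdh has many processed copies in the mouse genome, and a read that fits several of them cannot be placed. By sequence, 86 other annotated genes matched a Gapdh transcript at 95% identity or more over at least 500 bases, and 79 of them had counts. The copies summed to 71.5, 57.1 and 62.8 CPM in OE 1 to 3, against 29.7, 33.6 and 26.2 CPM in NC 1 to 3. Every library labelled OE was above every library labelled NC in this sum, unlike in the gene itself. The copies held 67.2, 75.6 and 78.2% of the counts of gene plus copies in OE 1 to 3, against 76.5, 22.7 and 85.9% in NC 1 to 3. Gene and copies together came to 106, 75.6 and 80.3 CPM, against 38.9, 148 and 30.5 CPM. Of the copies with most counts, Gm5559 (99.9% identical over 1002 bases) had 14.2, 11.8 and 14.4 CPM, against 6.04, 6.06 and 5.77 CPM. Its log2 difference was 1.17 ± 0.24 (edgeR adjusted p 0.012), with the call lost without NC 2 or NC 3 (the higher adjusted p, 0.066, without NC 3). Gm12070 and Gm7336 were called too, with log2 differences of 1.16 and 0.86 (edgeR adjusted p 0.041 and 0.040), and each kept its call in only 1 of 6 fits that left a library out. Which locus the reads of these copies came from cannot be told, and how the authors treated reads with several alignments is not given in the sources used here.

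Near-identical copies of the other genes held few counts. Eno1 has 4 such copies, which held 1.76 to 3.14% of the counts of gene plus copies in libraries labelled OE and 2.77 to 3.66% in libraries labelled NC. Of these, Gm4735 was called higher (log2 difference 1.35 ± 0.27, edgeR adjusted p 0.010; 0.051 without NC 3), and Eno1b was not (1.02 ± 0.32, edgeR adjusted p 0.068). Copies of Pkm and of Pgam1 held at most 1.01 and 1.13% in any library, and those of Pgk1, Gpi1, Ldha and Ldhb less. The Pgk1 copy Pgk1-rs7, 100% identical over 1255 bases, was called higher (log2 difference 1.495 ± 0.42, edgeR adjusted p 0.044) and kept the call in 1 of 6 fits that left out a library. Reads dropped before counting would not show in these shares.

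**Figure D4:**
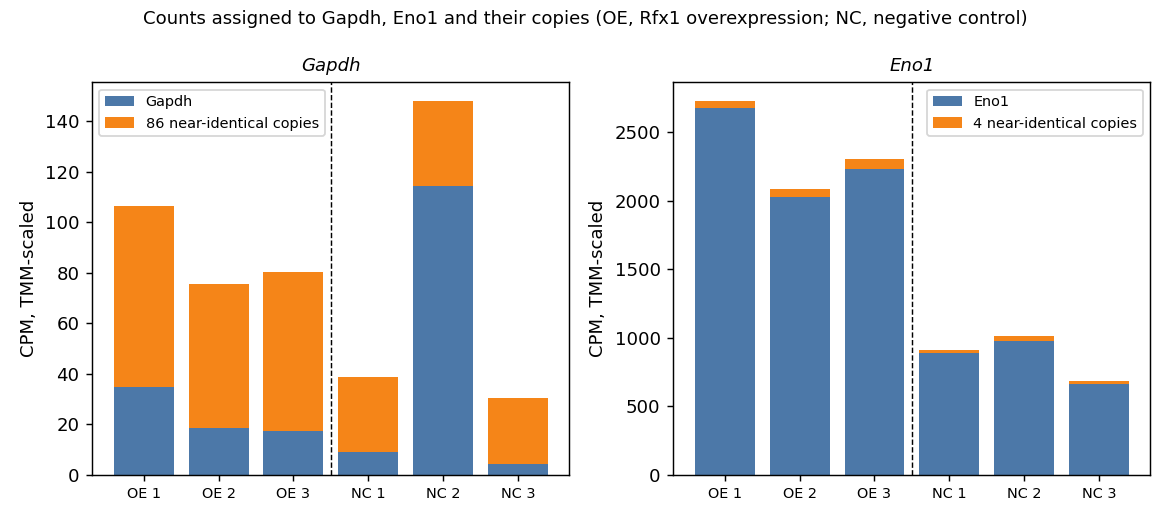
TMM-scaled CPM of Gapdh (left panel) and Eno1 (right panel), in blue, with the summed CPM of their near-identical copies stacked on top in orange, for the 3 Rfx1 overexpression libraries left of the dashed line and the 3 negative control libraries right of it. The copies outweigh Gapdh in each library except negative control 2, while for Eno1 they are a thin layer of at most 3.66%.

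Of the 6 genes of lactate and pyruvate handling, 3 rose: Ldha, Slc16a3 and Pdk3. Without OE 1 and OE 2 none of the 6 was called, with edgeR adjusted p of 0.17 for Ldha and 0.26 for Pdk3. Ldha (chr7:46841475-46855627), the lactate dehydrogenase form that favours lactate, had 2721, 2298 and 2158 CPM in libraries labelled OE, against 987, 1178 and 726 CPM in libraries labelled NC. The groups did not overlap, and the log2 difference was 1.31 ± 0.28 (edgeR adjusted p 0.015), with the call lost without OE 2 (adjusted p 0.064) or NC 3 (0.084). Ldhb, the form that favours pyruvate, overlapped between groups at 53.1, 37.6 and 35.5 CPM, against 31.8, 62.2 and 60.1 CPM. The ratio of Ldha to Ldhb per kb was 24.3, 29.0 and 28.8 in OE 1 to 3, against 14.7, 8.98 and 5.73 in NC 1 to 3. Slc16a3 (MCT4, chr11:120948480-120960868), the lactate exporter of glycolytic cells, had 488, 360.2 and 386 CPM, against 143, 157 and 85.8 CPM. It rose by 1.68 ± 0.28 on the log2 scale (edgeR adjusted p 0.0050), in all 6 fits that left out a library; without OE 1 and OE 2 together the difference was 1.59 (edgeR adjusted p 0.061). Slc16a1 (MCT1), a carrier that moves lactate in or out, had 39.8, 50.7 and 62.0 CPM, against 26.7, 35.3 and 34.5 CPM, without overlap and without passing the test (log2 difference 0.66 ± 0.23, edgeR adjusted p 0.092). Pdk3 (chrX:93764607-93832201), a kinase that switches off pyruvate dehydrogenase, had 35.5, 39.9 and 29.5 CPM, against 14.9, 21.9 and 15.8 CPM. It rose by 0.998 ± 0.23 (edgeR adjusted p 0.022), with the call lost without OE 2, NC 1 or NC 3 (adjusted p 0.11, 0.071 and 0.11). Pdk1, of the same family, was higher in every library labelled OE at 65.3, 84.3 and 89.0 CPM, against 55.8, 53.4 and 30.9 CPM, but missed the threshold (log2 difference 0.77 ± 0.26, edgeR adjusted p 0.088).

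None of the 8 pentose phosphate genes was called by edgeR, with all 6 libraries or without OE 1 and OE 2; at an unadjusted p of 0.05, 2 were higher, Rpia and Rpe, and none was lower. With so few genes, 0 of 8 is near the 6.9% of all genes called higher, and at the unadjusted p 14.7% of all genes were higher and 13.7% lower. DESeq2 called none, and limma-voom called these 2 and 18.2% of all genes higher. In the oxidative arm, which makes NADPH, G6pdx (chrX:74409483-74429194), the rate-limiting dehydrogenase, had 99.2, 124 and 122 CPM in libraries labelled OE, against 159, 131 and 126 CPM in libraries labelled NC. All libraries labelled OE were lower, with OE 2 and NC 3 close together, and the log2 difference was -0.27 ± 0.20 (edgeR adjusted p 0.43). Pgd, the second NADPH-producing enzyme, had 364, 317 and 305 CPM, against 436, 353 and 360 CPM, and overlapped (log2 difference -0.22 ± 0.22, edgeR adjusted p 0.55). Pgls, the lactonase between them, had 253, 155 and 138 CPM, against 102, 161 and 157 CPM, and also overlapped (log2 difference 0.38 ± 0.29, edgeR adjusted p 0.43). In the non-oxidative arm, which trades sugars with glycolysis, Tkt, the transketolase, had 425, 329 and 359 CPM, against 283, 283 and 271 CPM. Its groups did not overlap, but its log2 difference of 0.41 ± 0.21 did not pass (edgeR adjusted p 0.24). Taldo1, the transaldolase, had 603, 450.0 and 334 CPM, against 482, 625 and 532 CPM, with overlap (log2 difference -0.24 ± 0.27, edgeR adjusted p 0.61). Rpia, Rpe and Shpk, which isomerise, epimerise or feed the branch's sugar phosphates, had log2 differences of 0.63 ± 0.21, 0.59 ± 0.24 and 0.59 ± 0.31 (edgeR adjusted p 0.080, 0.14 and 0.25). Rpia and Shpk were higher in every library labelled OE, and Rpe overlapped. A p that misses the threshold does not show that these genes were at the same level.

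Set side by side, the 27 glycolytic, transport and lactate genes other than Gapdh summed to 21460, 18824 and 18154 CPM in OE 1 to 3, against 9572, 10648 and 7467 CPM in NC 1 to 3. The 8 pentose phosphate genes summed to 1821, 1481 and 1351 CPM, against 1514, 1624 and 1503 CPM. The glycolytic sums did not overlap between the groups and the pentose phosphate sums did. Such sums weigh abundant genes most, among them Aldoa and Pkm, which were not called. Counted by gene, 20 of the 28 glycolytic, transport and lactate genes and 3 of the 8 pentose phosphate genes were higher in every library labelled OE. In each set 1 gene was lower in every such library. Of all tested genes, 16.3% were higher and 17.1% lower in this way. At the branch point, the ratio of Gpi1 to G6pdx per kb of exon was 6.86, 4.36 and 3.48 in OE 1 to 3, against 1.44, 1.77 and 1.30 in NC 1 to 3. The ratio of Hk2 to G6pdx per kb was 1.43, 1.45 and 1.19, against 0.265, 0.236 and 0.274. Hk2 acts before the branch point. It had the largest log2 difference of the 36 genes, and G6pdx was lower in every library labelled OE. This ratio therefore restates those results. The summed hexokinases had 241, 214 and 160 CPM per kb in OE 1 to 3, against 164, 104 and 121 in NC 1 to 3, and overlapped. These sums and ratios are descriptions of the libraries, and the difference between the arms was not tested.

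Of 66 further genes of sugar metabolism, 49 could be tested, of which 6 rose and 4 fell, beside 6.9% and 5.97% of all tested genes, with a median log2 difference of 0.04. Without OE 1 and OE 2, 4 rose and none fell, beside 1.78% and 0.593% of all genes. The smallest p was that of Gys1, the glycogen synthase of non-liver tissues, with 93.7, 86.9 and 96.5 CPM in libraries labelled OE, against 17.0, 21.6 and 14.4 CPM in libraries labelled NC (log2 difference 2.39 ± 0.22, edgeR adjusted p 3.1e-04). Pgm1, which links glucose phosphates to glycogen, rose by 1.29 ± 0.21 (edgeR adjusted p 0.0044), Gpd2, the mitochondrial end of the glycerol phosphate shuttle, by 1.60 ± 0.21 (0.0019), and Pcx, pyruvate carboxylase, by 2.23 ± 0.39 (0.0064). These 4 were called in all 6 fits that left out a library, and without OE 1 and OE 2 together only Pcx lost the call (edgeR adjusted p 0.13). The other 2, named because they complete the count, were Gbe1 and Pygl, the branching enzyme and the liver phosphorylase of glycogen, with log2 differences of 1.17 and 1.03 (edgeR adjusted p 0.019 and 0.014); each was called in 3 of those 6 fits. Among the 4 that fell were Slc16a7, a pyruvate carrier (log2 difference -1.0003), and Pdp1, the phosphatase that switches pyruvate dehydrogenase back on (-1.21), with edgeR adjusted p of 0.022 and 0.026. Gpd1l and Idh1, the cytosolic NADPH-producing isocitrate dehydrogenase, also fell, by 0.83 and 0.90 (edgeR adjusted p 0.040 and 0.044). These 4 depended on single libraries: none was called without OE 1, OE 2 or NC 2, 1 without NC 3 and 2 without NC 1.

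Of 29 known regulators of glucose metabolism, 28 were tested, of which 6 rose and 1 fell, beside 6.9% and 5.97% of all tested genes, with a median log2 difference of -0.01. Without OE 1 and OE 2, 4 rose and 1 fell, beside 1.78% and 0.593% of all genes. Hif1a, the oxygen-regulated subunit of hypoxia-inducible factor, had 338, 474 and 562 CPM in libraries labelled OE, against 102, 112 and 103 CPM in libraries labelled NC (log2 difference 2.11 ± 0.25, edgeR adjusted p 0.0011). Egln1, a prolyl hydroxylase that marks this factor for degradation, rose by 1.504 ± 0.22 (edgeR adjusted p 0.0030), while its relative Egln2 overlapped between groups (log2 difference -0.07 ± 0.25, edgeR adjusted p 0.88). Vhl, the ubiquitin ligase subunit that binds the marked factor, rose by 1.28 ± 0.19 (edgeR adjusted p 0.0028). Arrdc4, an arrestin-like protein known to lower glucose uptake, had 232, 222 and 145 CPM, against 53.3, 58.3 and 52.9 CPM (log2 difference 1.86 ± 0.23, edgeR adjusted p 0.0015). Egln3 and Txnip completed the 6, with log2 differences of 1.85 and 0.84 (edgeR adjusted p 0.0049 and 0.047). Nr1h3, the liver X receptor gene, fell to 13.5, 11.6 and 11.1 CPM, against 35.0, 34.6 and 31.7 CPM in libraries labelled NC (log2 difference -1.48 ± 0.20, edgeR adjusted p 0.0021). All of these but Txnip were called in each of the 6 fits that left out a library, and without OE 1 and OE 2 together Egln3 (edgeR adjusted p 0.089) and Txnip (0.30) lost the call. Epas1, the other oxygen-regulated subunit, had 11.8, 10.6 and 65.0 CPM, against 76.6, 122 and 169 CPM. It was lower in every library labelled OE, but the log2 difference of -2.07 ± 0.69 was not called (edgeR adjusted p 0.087). The levels of these regulators and of the glycolytic genes come from the same 6 libraries, and no link between them was tested.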

How the data were processed

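The deposited table holds the authors' raw counts of reads, gene by gene, for 6 libraries prepared with a stranded mRNA kit per the labels' protocols. The submitters' processing notes list mm10, DESeq2 1.20.0 and featureCounts 1.5.0-p3. For the aligner, annotation release, strand setting and reads with several alignments, nothing is given in the sources used here. Libraries held 16461277 to 18795575 counts. Of 54532 identifiers, 54495 matched GENCODE mouse release M21, which gave symbols, coordinates (mm10) and exon lengths. Replicates correlated at 0.931 to 0.978 (log2 CPM) and each pair's chi-square over its degrees of freedom was 40.5 or more, above sampling noise.

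edgeR 4.0.16 in R 4.3.3 was fitted to the raw counts of all 6 libraries with group alone as term (TMM scaling, robust quasi-likelihood test). Its default filter on low counts kept 13454 genes and left out 41078. P-values were adjusted by Benjamini-Hochberg over all tested genes and called at 0.05. CPM use TMM-scaled library sizes; standard errors are the log2 difference divided by the square root of F. Levels per kb divide CPM by the union of exons. The script was tested on simulated data. Alternatives were RLE, upper-quartile and library-size scaling, DESeq2 1.42.0, limma-voom with quality weights (limma 3.58.1), no filter, a filter of 1 CPM in 3 libraries, a replicate block, an adjusted p of 0.01 and leaving out each library. Added after seeing the data were fits without OE 1 and OE 2, without NC 1 and OE 3, and with Lyz2 left out of scaling. Copies were found with blastn 2.17.0 among annotated transcripts at 95% identity or more over at least 500 aligned bases. The members and lists were chosen with earlier results of these data known. Named are all 36 members, Rfx1, copies holding counts, and up to 4 risen and 4 fallen genes of each further list by smallest p; Gbe1, Pygl, Egln2, Egln3, Txnip and Epas1 were named after their values were seen.

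Since the strand setting is unknown, reads shared with overlapping genes, such as Ikbkg beside G6pdx, Pitrm1 beside Pfkp and Yod1 beside Pfkfb2, cannot be told apart. Counts carry no molecular identifiers.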

Additional observations from a re-analysis of the deposited data

How the results depend on the processing

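The 12 risen genes became 14 with DESeq2, 20 with limma-voom, 9 with library-size scaling, 5 at an adjusted p of 0.01, 3 without OE 1 and OE 2, and 4 to 13 when a library was left out. Of the 28 glycolytic, transport and lactate genes, 12 rose with all libraries, 4 to 13 when a library was left out, 5 at an adjusted p of 0.01 and 3 without OE 1 and OE 2. In the fit without NC 1 and OE 3, added after the data were seen, 17 rose. The shares of all genes called were not worked out for that fit, for DESeq2 or for the replicate block below. Among the fits that left out a single library, only those without OE 2 and without NC 3 have such shares. Counts from fits that lack them cannot be set against all genes. With limma-voom 1 gene fell, Slc2a6, and without the filter on low counts 1 fell, Gapdh at -0.88. Of the 8 pentose phosphate genes, 2 rose with limma-voom, where 18.2% of all genes did. Of the 49 further sugar metabolism genes tested, 11 rose and 10 fell with limma-voom, near its 18.2% and 19.8% of all genes. Of these, 8 fell without NC 1 and OE 3, 0 at an adjusted p of 0.01, and 0 to 6 when a library was left out. Regulators that fell numbered 3 with limma-voom, beside 19.8% of all genes, and 2 without the filter, beside 6.15%. They numbered 3 without NC 1 and OE 3, and 1 to 2 when a library was left out. With no filter, 1457 genes of the whole table were called higher and 1460 lower, against 928 and 803; limma-voom called 2453 and 2667.

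Signs turned for genes that were not called. Without OE 1 and OE 2 the log2 difference was 0.078 for Slc2a3, -0.11 for Hk3, 0.11 for Pfkfb4, -0.0097 for Pgls and -0.25 for Rfx1. It ranged from -0.40 to 0.033 for Pfkfb2, -0.20 to 0.057 for Pfkfb4, -1.40 to 1.82 for Gapdh and -0.10 to 1.37 for Rfx1 when a library was left out. Gapdh was 0.62 with limma-voom. Without NC 1 and OE 3, a fit added after the data were seen, Rfx1 was 1.59. NC 1 had the highest Rfx1 level of the libraries labelled NC (57.5 CPM). OE 3 had the lowest of those labelled OE (23.2 CPM). Leaving out these libraries widens the Rfx1 difference by choice, so that fit cannot test it. The cause was not tested.

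Replicate numbers did not pair the libraries: deviations of same-numbered libraries correlated at 0.0941, 0.00531 and 0.327, and only OE 3 correlated best with its own number. With a replicate block, 12 of the 36 genes rose, 2 regulators fell and Gapdh was 0.63. RLE and upper-quartile scaling, the 1 CPM filter and leaving Lyz2 out of scaling changed no call among the 36 genes.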
